A study of Mus musculus with 20 samples.

Results

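The genes of the mitochondrial respiratory chain and of the ATP synthase, from both the nuclear and the mitochondrial genome, were followed in liver RNA of 20 male C57BL/6 mice. Protein-coding genes were taken by symbol: the Ndufa, Ndufb, Ndufc, Ndufs and Ndufv subunits of complex I, Sdha to Sdhd of complex II, the Uqcr genes and Cyc1 of complex III, the Cox4i, Cox5, Cox6, Cox7 and Cox8 genes of complex IV, the Atp5 genes of the ATP synthase (complex V), Cycs, which encodes the electron carrier cytochrome c, and the 13 protein genes of mitochondrial DNA. Of 101 genes with such a name, 92 reached a level of 2 in at least 3 mice, given throughout as CPM, the counts of a gene scaled to the total of its library (with TMM factors of edgeR), among 12289 genes tested in the whole table. They were 80 nuclear genes and 12 mitochondrial genes. Ndufa4 and Ndufa4l2 carry complex I names and were counted with complex IV, where the Ndufa4 protein sits. Atp5s and Cox7a2l matched by name without being classical subunits: Atp5s encodes a coupling factor, and Cox7a2l a factor that joins complexes III and IV.

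Before the operation all mice were made obese with 12 weeks of high-fat diet (HFD). They then had Roux-en-Y gastric bypass (RYGB) or a sham operation, and lived on chow or HFD for a further 8 weeks. RYGB leaves a small stomach pouch joined to the small intestine beyond its first part. With 5 mice in each group and 1 liver library per mouse, the sham-operated groups were Sham Chow and Sham HFD and the bypass groups RYGB Chow and RYGB HFD. Sham Chow mice were therefore formerly obese mice moved to chow, not mice that had never eaten HFD. The study reported that Sham HFD mice were heavier than all other groups. In comparisons with Sham HFD, body weight therefore cannot be told apart from diet or operation. In a bulk liver sample, fewer cells of a type and less RNA per cell cannot be told apart.

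Complex I takes electrons from NADH and complex II from succinate, complex III passes them from coenzyme Q to cytochrome c, and complex IV gives them to oxygen. Complexes I, III and IV pump protons across the inner membrane of the mitochondrion, and the ATP synthase uses the gradient to make ATP. Every complex except II is built from subunits of both genomes, so that hepatocytes, which are rich in mitochondria, must match messages made in the nucleus with messages made in the organelle.

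Total counts ran from 14604854 to 22537498 per mouse. The hepatocyte markers, led by albumin, were high in all mice (summed level 79731 to 130468 CPM over 7 genes). Sham HFD replicate 4 also held RNA of striated muscle, with 315 CPM summed over 6 markers, whereas the other 19 mice had at most 0.331 CPM. RYGB Chow replicate 3 had the lowest summed level of both nuclear and mitochondrial members of all mice. Counts that changed without these libraries are given beside the results they touch.

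The mitochondrial genes are shown here by sequence, because the genome holds a near-identical stretch of mitochondrial DNA on chromosome 1 (GRCm38, GENCODE M21 annotation), and a read that fits both places has no single gene. mt-Nd3, which encodes a complex I subunit (mitochondrial genome 9459 to 9806, plus strand), differs from its nuclear copy Gm28438 (chromosome 1, 24612775 to 24613119) at 1 position of 345, T3C, counted from the start of the gene. mt-Co2, the complex IV subunit that receives electrons from cytochrome c (7013 to 7696, plus strand), matched its copy Gm28661 (chromosome 1, 24614885 to 24615565) at all 681 aligned bases. The first bases of each pair are printed with the differing base in capitals.

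mt-Nd3: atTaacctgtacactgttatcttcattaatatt
Gm28438: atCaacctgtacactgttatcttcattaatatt
mt-Co2: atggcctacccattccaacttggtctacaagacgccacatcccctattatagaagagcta
Gm28661: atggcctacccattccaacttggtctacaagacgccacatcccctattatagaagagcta

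Each mitochondrial gene was scanned with windows of 150 bases, the length of 1 read, for exact matches in annotated nuclear pseudogenes; other parts of the genome were not searched. mt-Nd3, mt-Nd4l, mt-Co2, mt-Co3 and mt-Atp6 had between 97.0% and 99.8% of their windows in a nuclear copy, and their median levels per length were only 81.0 to 172.6 CPM per kb. mt-Nd1, mt-Nd2, mt-Nd5, mt-Nd6 and mt-Cytb had 0% of windows in a copy and stood at 3204 to 8628 CPM per kb. mt-Nd4 (59.2% of windows) and mt-Co1 (23.6%) lay at 4106 and 14930 CPM per kb. The counts of the 5 genes with a near-complete copy are thus uncertain, as how reads with several positions were counted is not given in the sources used here. mt-Atp8, which encodes a small ATP synthase subunit, had no window in an annotated copy, is 204 bases long and shares 43 bases with mt-Atp6. It begins between mt-Co2 and mt-Atp6, whose copies are both on chromosome 1, and the stretch between those copies was not searched. mt-Atp8 stayed between 0.544 and 1.53 CPM and was not kept. mt-Nd6 lies on the opposite strand and overlaps mt-Nd5 by 14 bases, and the strand setting of the counting is likewise not given.

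**Figure D1:**
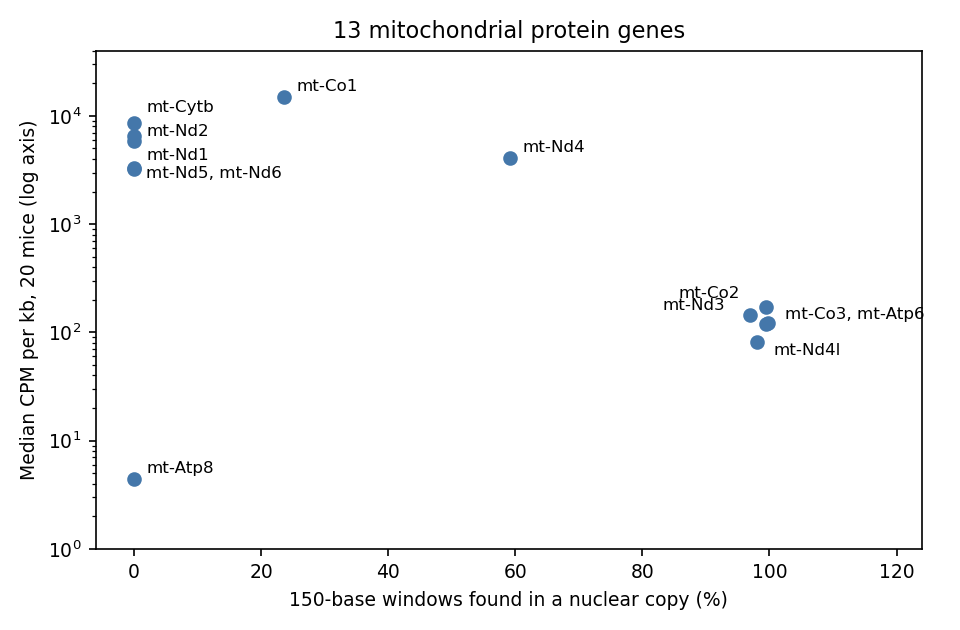
Median level per length over the 20 mice (CPM per kb of gene, log axis) of the 13 mitochondrial protein genes against the share of their 150-base windows found in a nuclear copy (percent), 1 point per gene. The 5 genes at 97.0% or above sit between 81.0 and 172.6 CPM per kb. mt-Atp8 lies apart at 4.388 CPM per kb, with 0% of windows in an annotated copy.

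The mitochondrial members took between 3.88% and 7.17% of all counts in a mouse, and the 80 nuclear members together between 0.949% and 1.36%. mt-Co1, the catalytic subunit of complex IV, had the highest level per length of all members at 15208 ± 2659 CPM per kb (mean ± SD over the 20 mice), followed by mt-Cytb, the cytochrome b of complex III, at 8501 ± 1400. Among nuclear members, Atp5b, the catalytic beta subunit of the ATP synthase, was highest per length (609 ± 49.4 CPM per kb of principal transcript). The highest of the other complexes were Cox6a1 in complex IV (493 ± 80.1), Ndufa6 in complex I (209 ± 34.0), Uqcrh, the hinge protein of complex III (200 ± 30.1), and Sdha, the flavoprotein of complex II (182 ± 16.8). The lowest were Ndufa4l2 (1.70 ± 0.537), Ndufb2 (2.04 ± 0.324), Atp5s (4.05 ± 0.648), Sdhc (50.1 ± 5.64) and Uqcrc2 (105 ± 8.42), and Cycs stood at 25.2 ± 3.33. The principal transcript was the longest protein-coding transcript with a principal tag in the annotation, or the longest of all where none had it. It had 4371 bases for Ndufb2, 3171 for Sdhc and 3123 for Cycs, so their low values depend on that choice. The first place was not resolved from the next gene, their spreads overlapping, in complex II (Sdhb, 162 ± 25.4), complex III (Uqcr10, 196 ± 32.9) and complex IV (Cox4i1, 466 ± 68.2). Across complexes, Atp5b was not resolved from Cox6a1, nor Uqcrh from Ndufa6, nor mt-Cytb from mt-Nd2 (6427 ± 1026).

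Complex IV has alternative subunits with tissue-restricted use, and the liver libraries held the widely expressed forms. Cox4i1 ranged from 273 to 470 CPM over the 20 mice, whereas Cox4i2 did not exceed 0.464 CPM. Cox6b1 ranged from 93.1 to 182 CPM against at most 0.395 CPM for Cox6b2. Cox6a1, Cox7a2 and Cox8a likewise stood far above Cox6a2, Cox7a1, Cox8b and Cox8c. The muscle forms Cox6a2, Cox8b and Cox7a1 were highest in Sham HFD replicate 4, the library with striated muscle RNA, at 8.54, 5.02 and 3.88 CPM, and reached no more than 0.383, 0.289 and 1.57 CPM in the other mice. Cox8c and Cox7b2 had 0 counts in all mice, as did a second gene record named Atp5o. The 9 members not kept were mt-Atp8, Cox4i2, Cox6a2, Cox6b2, Cox7a1, Cox7b2, Cox8b, Cox8c and this Atp5o record. Atp5g1, Atp5g2 and Atp5g3 encode the same mature c subunit of the ATP synthase rotor, and all were kept, at means of 113, 80.8 and 334 CPM in Sham Chow.

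Sham Chow vs. Sham HFD compared chow with continued HFD in mice without bypass, which also differed in body weight. Here many nuclear members, and none significantly in the other direction, were lower in Sham HFD. Their summed level was 11385, 11920, 12858, 14143 and 13332 CPM in the 5 Sham Chow mice and 9948, 11378, 11192, 11237 and 11529 CPM in the 5 Sham HFD mice. The groups overlapped only in that the highest Sham HFD mouse passed the lowest Sham Chow mouse. By edgeR's quasi-likelihood test with Benjamini-Hochberg adjustment over all 12289 genes, 25 of the 80 nuclear members (31.2%) were lower at an adjusted p under 0.05 and 0 were higher. Over all tested genes 10.7% were lower and 10.9% higher by the same rule. The median log2 fold change of the nuclear members was -0.23, with 75 of 80 below 0, while the median of all genes was at 0.00. At an unadjusted p under 0.05, 44 nuclear members were lower against 17.9% of all genes, and 0 were higher.

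By complex, the calls were 8 of 36 nuclear genes in complex I, 1 of 4 in complex II, 2 of 9 in complex III, 8 of 13 in complex IV and 6 of 17 in complex V, and Cycs was not called. The median log2 fold changes were -0.21, -0.12, -0.23, -0.32 and -0.27 in that order. The 25 log2 fold changes ran from -0.43 to -0.26, which is 16.7% to 26.0% below the Sham Chow level. All 5 Sham HFD mice lay below all 5 Sham Chow mice for 20 nuclear and 0 mitochondrial members, where 8.06% of all tested genes did so.

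Cox7a2, which encodes the widely expressed form of subunit 7a of complex IV (chromosome 9, 79755361 to 79759878, minus strand), had the smallest p of all members. It measured 106, 126, 125, 139 and 145 CPM in Sham Chow and 101, 97.7, 90.5, 93.9 and 94.8 CPM in Sham HFD. All Sham HFD mice were below all Sham Chow mice, and the log2 fold change was -0.42 (SE 0.0869, adjusted p = 0.00178 in edgeR). In RYGB Chow it measured 97.2, 120, 106, 108 and 118 CPM and in RYGB HFD 94.0, 111, 105, 124 and 100 CPM. These groups overlapped with each other. The related Cox7a2l fell by 0.41 on the log2 scale (SE 0.0849, adjusted p = 0.00198 in edgeR), from 99.3 ± 10.5 CPM (SD, n = 5) in Sham Chow to 74.7 ± 4.73 in Sham HFD.

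Uqcrh (chromosome 4, 116066965 to 116075071, minus strand), which helps complex III pass electrons to cytochrome c, measured 105, 119, 131, 148 and 134 CPM in Sham Chow and 87.5, 96.7, 94.6, 99.9 and 100 CPM in Sham HFD. The groups did not overlap, and the log2 fold change was -0.41 (SE 0.0966, adjusted p = 0.0048 in edgeR). Ndufs7, an iron-sulfur subunit of complex I that hands electrons toward coenzyme Q, measured 78.4, 90.6, 85.2, 97.0 and 92.8 CPM in Sham Chow and 59.6, 71.6, 69.5, 68.5 and 71.5 CPM in Sham HFD, again without overlap (log2 fold change -0.38, SE 0.0910, adjusted p = 0.00541 in edgeR). Ndufa4, the complex IV subunit with a complex I name, measured 222, 258, 265, 305 and 286 CPM in Sham Chow and 188, 209, 207, 195 and 206 CPM in Sham HFD. Its groups were also apart (log2 fold change -0.41, SE 0.103, adjusted p = 0.00755 in edgeR). Ndufb11, an accessory subunit of complex I, fell by 0.30 on the log2 scale (adjusted p = 0.0133 in edgeR), and its highest Sham HFD mouse, at 92.5 CPM, passed the lowest Sham Chow mouse at 90.8 CPM.

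Sdhd, a membrane anchor of complex II, was the called member there (log2 fold change -0.32, adjusted p = 0.0138 in edgeR), and in complex V Atp5l (-0.41, adjusted p = 0.0134) and Atp5h (-0.39, adjusted p = 0.0149) had the smallest p. Atp5g2 was called (-0.27, adjusted p = 0.0249 in edgeR), whereas Atp5g1 had a log2 fold change of -0.32 (adjusted p = 0.0765) and Atp5g3 of -0.23 (adjusted p = 0.134). The difference among these c subunit genes was not tested. Cox4i1, a core nuclear subunit of complex IV, was called as well (-0.32, adjusted p = 0.0282 in edgeR).

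**Figure D2:**
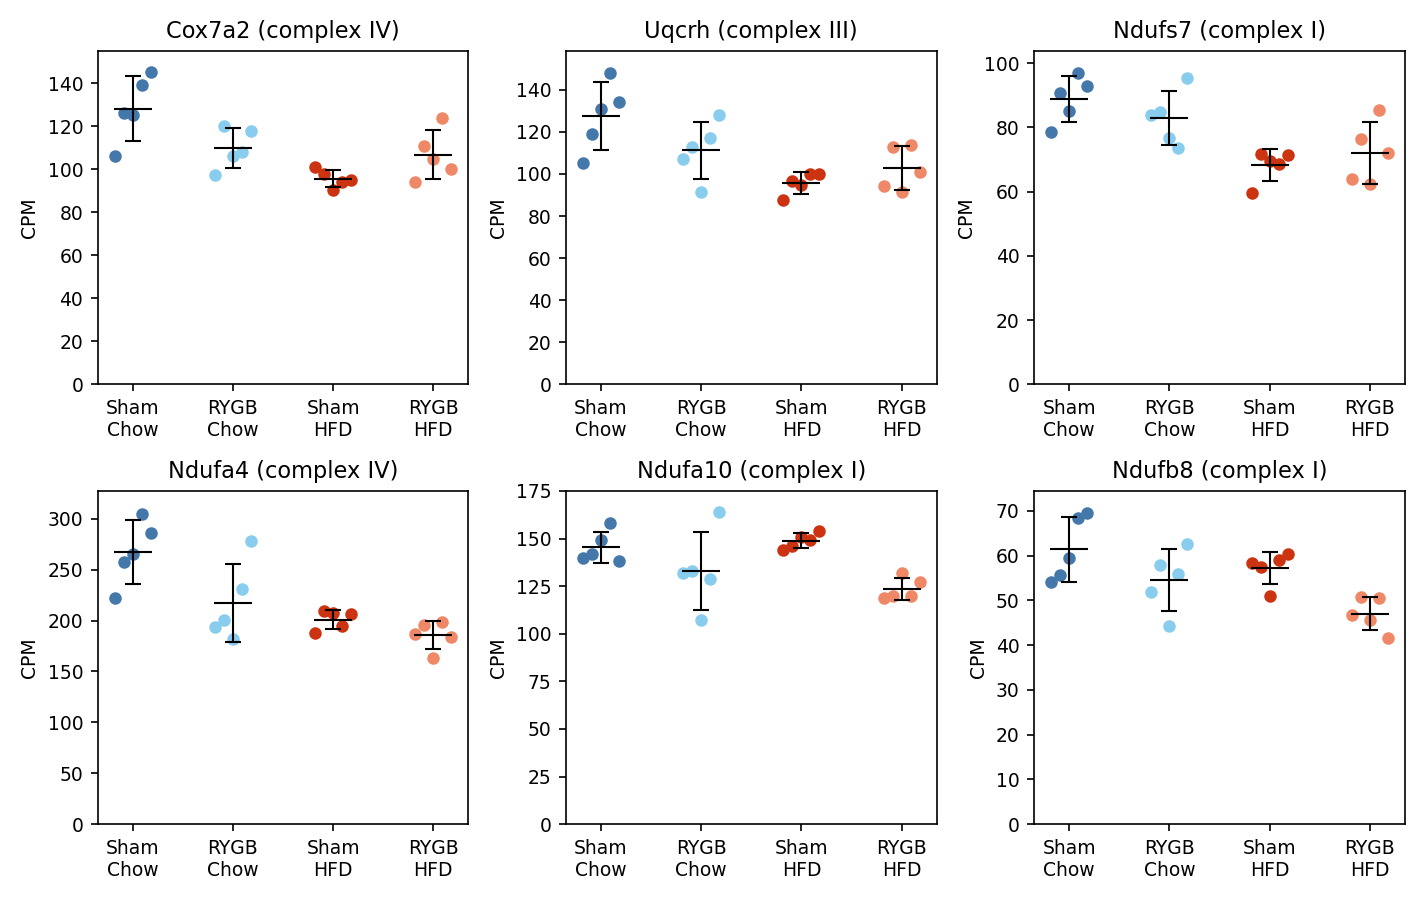
CPM of 6 members in each of the 5 mice per group (points), with the mean (long line) and SD (error bars), the axes starting at 0. Cox7a2, Uqcrh, Ndufs7 and Ndufa4 were lower in all Sham HFD mice than in all Sham Chow mice, and Ndufa10 and Ndufb8 in all RYGB HFD mice than in all Sham HFD mice.

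The mitochondrial members showed no call in Sham Chow vs. Sham HFD in edgeR (0 of 12), nor by DESeq2 (0), and 3 were lower at an unadjusted p under 0.05. Their median log2 fold change was -0.21, close to that of the nuclear members, with 11 of 12 below 0. The median SD of log2 values within groups, taken over all 4 groups, was 0.298 for mitochondrial and 0.164 for nuclear members. Among the mitochondrial members this SD ran from 0.192 (mt-Nd1) to 0.454 (mt-Nd3, a gene with a near-complete copy). The part of this spread in the lack of calls was not tested. mt-Co1 measured 27564, 23059, 27822, 30059 and 31566 CPM in Sham Chow and 23838, 23066, 22936, 22526 and 21252 CPM in Sham HFD. The groups overlapped through Sham Chow replicate 2, and the log2 fold change was -0.30 (SE 0.138, adjusted p = 0.121 in edgeR). mt-Nd1 and mt-Nd2, core subunits of complex I, stood at -0.25 (adjusted p = 0.136 in edgeR) and -0.32 (adjusted p = 0.0956). In edgeR without RYGB Chow replicate 3, a mouse outside the compared groups that enters the shared estimate of spread, mt-Co1 (adjusted p = 0.0207) and mt-Nd2 (adjusted p = 0.0336) passed. For mt-Nd5, mt-Nd6 and mt-Cytb the changes were 0.00, 0.01 and -0.08 (adjusted p = 0.997, 0.99 and 0.737 in edgeR). Of the genes with a near-complete copy, mt-Nd3 was at -0.42, mt-Co3 at -0.31, mt-Co2 at -0.30, mt-Atp6 at -0.10 and mt-Nd4l at -0.04 (adjusted p from 0.191 to 0.921 in edgeR), and mt-Nd4 was at -0.18 (adjusted p = 0.382). All 7 nuclear copies were below 0 too, with a median of -0.38, and 2 were called lower in edgeR, Gm29216 (the copy of part of mt-Co1, -1.32, adjusted p = 0.014) and Gm28437 (the copy of mt-Co3, -0.68, adjusted p = 0.0378). Without Sham HFD replicate 4, 1 copy was called, and without RYGB Chow replicate 3, 3 were. Reads of the genes and of their copies cannot be told apart by sequence over the shared windows.

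**Figure D3:**
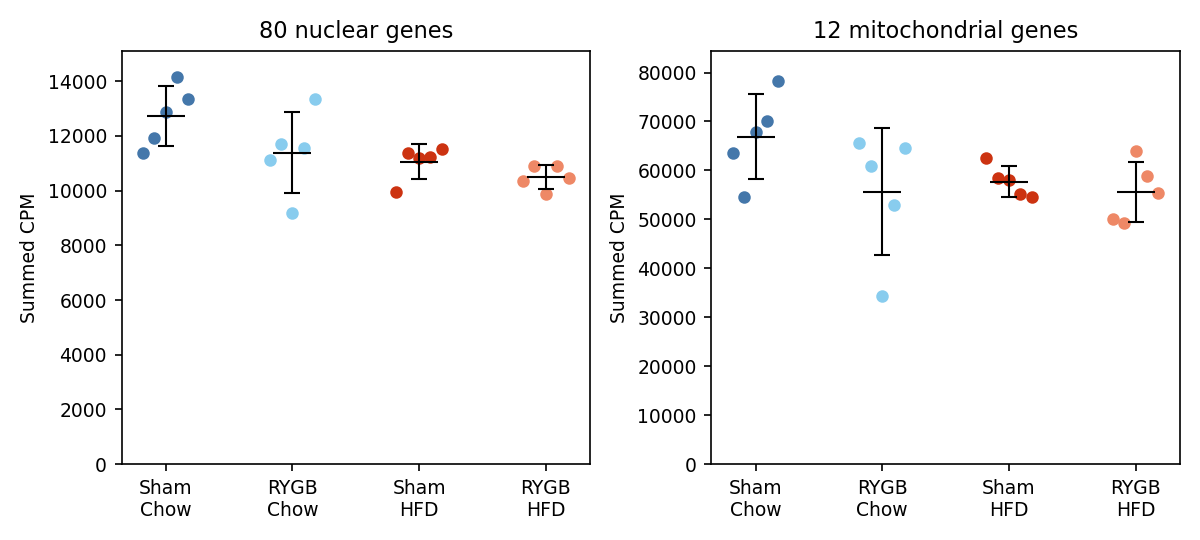
Summed CPM of the 80 nuclear members (left) and the 12 mitochondrial members (right) in each of the 20 mice by group, with the group mean (long line) and SD (error bars), axes starting at 0. Nuclear sums ran from 9190 to 14143 CPM and mitochondrial sums from 34363 to 78231 CPM, with RYGB Chow replicate 3 lowest in both.

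The count in Sham Chow vs. Sham HFD depended on how libraries were scaled. With TMM, the default of edgeR, 1337 genes of the whole table were higher and 1319 lower, and with the library size alone 2262 were higher and 556 lower, with the median of all genes moved to 0.12. On that scale 5 nuclear members were lower and 1 was higher (Atp5s, log2 fold change 0.41), with a member median of -0.10. Relative to the median of all genes, the nuclear members stood at -0.22 on that scale and at -0.23 with TMM. As a share of all counts, the nuclear members took 1.23% ± 0.0858 (SD, n = 5) in Sham Chow and 1.16% ± 0.0647 in Sham HFD. Leaving out mice in turn gave 10 calls without Sham Chow replicate 4, 12 without Sham Chow replicate 5 or Sham HFD replicate 1, 14 without Sham Chow replicate 3 and 16 without Sham HFD replicate 4. Ndufs7, Uqcrh, Cox7a2, Cox7a2l, Ndufa4, Ndufb11, Sdhd, Atp5h and Atp5l were called in 20 of 20 such fits. Without Sham HFD replicate 4 and RYGB Chow replicate 3 together there were 24 calls, and without Sham Chow replicate 1 there were 35.

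Markers of other liver cells moved in the same contrast. Of the macrophage markers, 5 of 7 were higher in Sham HFD and 0 lower, with a summed level of 110 to 292 CPM in Sham Chow and 267 to 362 CPM in Sham HFD. All 6 stellate cell markers were higher (136 to 219 CPM summed in Sham Chow, 292 to 356 CPM in Sham HFD), but Des, which muscle also expresses, stood at 32.1 CPM in Sham HFD replicate 4 and at no more than 5.40 CPM in the other mice. Without that library 4 of 6 stellate and 3 of 7 macrophage markers were higher, and the log2 fold change of Des went from 1.23 to 0.14 (adjusted p = 0.588 in edgeR). With all mice, 3 of 7 hepatocyte markers were lower (90089 to 108803 against 79731 to 91713 CPM). The part of these shifts in the members' values was not tested.

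Transcripts of the members are short, with a median principal transcript length of 892 bases for nuclear members against 3026 bases for all tested protein-coding genes. Within the nuclear members the shorter transcripts tended to have the lower log2 fold changes. Spearman's rho of log2 fold change with length was 0.42 over the 80 members in Sham Chow vs. Sham HFD and 0.60 in Sham Chow vs. RYGB Chow, against 0.18 and 0.17 over all 11355 tested protein-coding genes. Genes are not independent replicates, and the points of a contrast share their libraries, so these are descriptions. With an offset for exon length in the model, 34 nuclear members were lower in Sham Chow vs. Sham HFD. That length joins all exons of a gene and can be far from the principal transcript length (6443 against 544 bases for Atp5l). The part of principal transcript length in the calls was not tested.

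**Figure D4:**
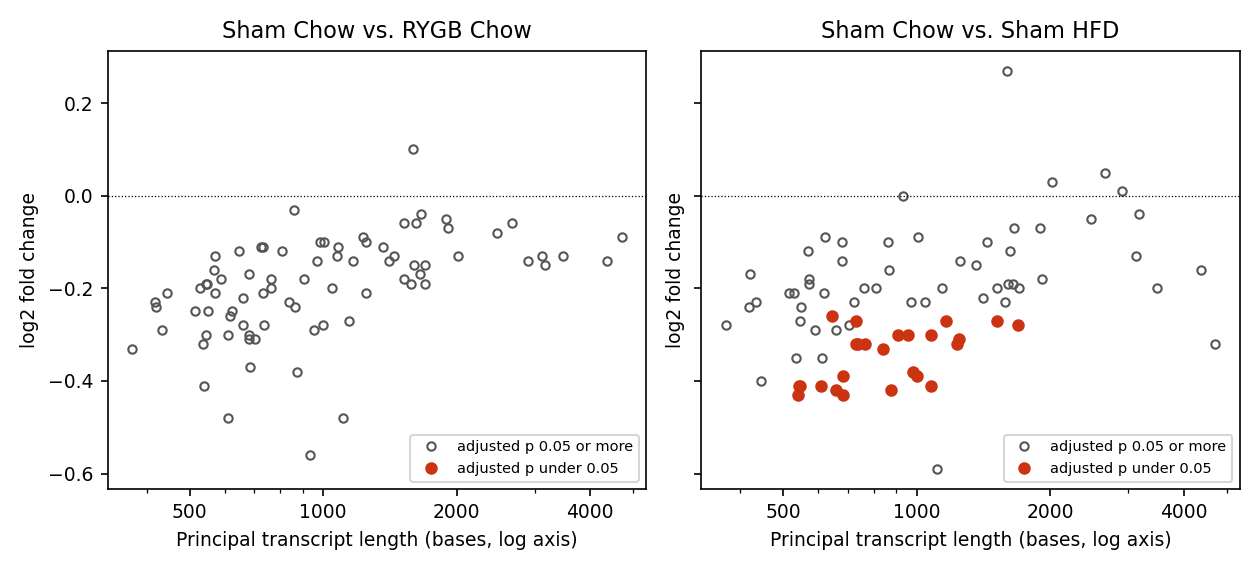
Log2 fold change of each of the 80 nuclear members against the length of its principal transcript (bases, log axis) in Sham Chow vs. RYGB Chow (left) and Sham Chow vs. Sham HFD (right), with members at an adjusted p under 0.05 filled in red. Most points lie below 0, and the lowest are at -0.56 (left, Ndufa4l2, 934 bases) and -0.59 (right, Ndufa12, 1110 bases). Ndufa4l2 rests on few counts and reached 2 CPM in only 5 mice. Ndufa12 had the widest spread of the nuclear members (SD of log2 values within groups 0.488).

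Sham Chow vs. RYGB Chow compared bypass with sham operation on chow, and no member passed the adjusted test, although nearly all nuclear members were on the lower side. In edgeR 0 of 80 nuclear and 0 of 12 mitochondrial members were called, and DESeq2 called 0 and 0. Over all tested genes only 0.00814% were lower at an adjusted p under 0.05. At an unadjusted p under 0.05, 22 nuclear and 3 mitochondrial members were lower and 0 were higher, beside 5.08% of all genes that were lower. The median log2 fold change was -0.18 over the nuclear members, with 79 of 80 below 0, and -0.15 over the mitochondrial ones. Of all tested genes, 0.594% had all 5 RYGB Chow mice below all 5 Sham Chow mice, and 0 members did.

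Atp5mpl, a small accessory subunit of the ATP synthase, had the smallest p. It measured 57.0, 71.0, 79.7, 82.2 and 65.3 CPM in Sham Chow and 45.5, 42.5, 46.0, 57.8 and 63.6 CPM in RYGB Chow. The groups overlapped, and its log2 fold change of -0.48 (SE 0.133) did not pass (adjusted p = 0.193 in edgeR). Ndufb9 (-0.31), Ndufa5 (-0.38), Atp5j2 (-0.29), Ndufa4 (-0.30) and Cox6c (-0.28) followed with adjusted p between 0.268 and 0.285 in edgeR. mt-Co1 (-0.34), mt-Co2 (-0.36) and mt-Cytb (-0.33) were the mitochondrial members under an unadjusted 0.05 (adjusted p = 0.361, 0.436 and 0.413).

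The RYGB Chow group was wide, and 1 mouse set much of the mitochondrial value. The mitochondrial sum was 65674, 60827, 34363, 52934 and 64635 CPM in RYGB Chow, with replicate 3 far below the others, and 63625, 54546, 67846, 70053 and 78231 CPM in Sham Chow. Without RYGB Chow replicate 3 the median log2 fold change of the mitochondrial members was -0.02 and that of the nuclear members -0.12. All 7 macrophage markers were higher at an unadjusted p under 0.05 in this contrast, with 0 called. RYGB Chow replicate 3 also had the highest summed macrophage markers (553 CPM, against 110 to 431 CPM in the other mice) and the lowest hepatocyte marker sum of its group (81098 CPM, against 94994 to 130468 CPM). The part of these in its low values was not tested.

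Sham HFD vs. RYGB HFD compared the operations on continued HFD, and 2 complex I genes were lower after bypass. Of the nuclear members 2 of 80 (2.50%) were lower and 0 higher, where 7.90% of all tested genes were lower, so the share of members was below the background. The median log2 fold change was -0.10, with 65 of 80 below 0. At an unadjusted p under 0.05, 9 nuclear members were lower (14.4% of all genes were) and 0 were higher. All 5 RYGB HFD mice lay below all 5 Sham HFD mice for 6 nuclear members, Ndufa10, Ndufb8, Sdhc, Uqcrfs1, Cox6b1 and Cycs, against 7.43% of all genes.

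Ndufa10, an accessory subunit of complex I (chromosome 1, 92439010 to 92473860, minus strand), measured 144, 146, 151, 149 and 154 CPM in Sham HFD and 119, 120, 132, 120 and 127 CPM in RYGB HFD. The groups were apart, with a log2 fold change of -0.27 (SE 0.0809, adjusted p = 0.0265 in edgeR). On chow it was 140, 142, 149, 158 and 138 CPM in Sham Chow and 132, 133, 107, 129 and 164 CPM in RYGB Chow, which overlapped. Ndufb8, another accessory subunit (chromosome 19, 44548572 to 44555440, minus strand), measured 58.4, 57.4, 51.1, 59.0 and 60.3 CPM in Sham HFD and 46.7, 50.7, 45.6, 50.5 and 41.7 CPM in RYGB HFD. These groups were also apart (log2 fold change -0.28, SE 0.0920, adjusted p = 0.0396 in edgeR). Sdhc (-0.23, adjusted p = 0.0727), Cycs (-0.22, adjusted p = 0.115) and Ndufb3 (-0.31, adjusted p = 0.141) came next in edgeR without passing. Without Sham HFD replicate 5 or without RYGB HFD replicate 1 there were 0 calls, there was 1 call without Sham HFD replicate 2, 3 or 4 or RYGB HFD replicate 3, 4 or 5, and there were 4 without RYGB Chow replicate 5. With the library size alone 13 nuclear members were lower. In this contrast 5 of 7 hepatocyte markers were higher and 1 lower in RYGB HFD (79731 to 91713 CPM summed in Sham HFD, 108653 to 128987 in RYGB HFD), 3 of 6 stellate markers were lower (292 to 356 against 190 to 288 CPM, and 2 of 6 without Sham HFD replicate 4), and 0 of 7 macrophage and 0 of 6 endothelial markers were called in edgeR (0 and 1 lower at an unadjusted p under 0.05). Their part in the members' values was not tested.

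The mitochondrial members gave 0 calls in this contrast in edgeR and in DESeq2, with a median log2 fold change of 0.02. At an unadjusted p under 0.05, 1 was higher, mt-Nd3, at 37.3, 31.1, 48.9, 35.1 and 39.1 CPM in Sham HFD and 86.4, 31.2, 57.3, 66.0 and 45.8 CPM in RYGB HFD. The groups overlapped through RYGB HFD replicates 2 and 5 (log2 fold change 0.58, SE 0.252, adjusted p = 0.12 in edgeR), and without RYGB HFD replicate 2 the adjusted p was 0.0481. As given above, 97.0% of its windows also lie in Gm28438. The other mitochondrial members ranged from -0.15 for mt-Cytb to 0.24 for mt-Co3.

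RYGB Chow vs. RYGB HFD compared the diets after bypass. Of the nuclear members 0 were called in edgeR, with 1.65% of all genes lower, and DESeq2 called 1 (Ndufa4l2, higher). Their median log2 fold change was -0.14, with 77 of 80 below 0, and 11 were lower and 1 higher at an unadjusted p under 0.05, beside 8.98% of all genes that were lower. Ndufb4 (-0.30, adjusted p = 0.123), Sdhd (-0.25, adjusted p = 0.132), Uqcrfs1, the Rieske iron-sulfur protein of complex III (-0.17, adjusted p = 0.142), and Ndufb11 (-0.20, adjusted p = 0.187) had the smallest p among the lower members in edgeR. Without RYGB Chow replicate 3, Sdhd, Uqcrfs1 and Ndufb3 passed as lower (log2 fold changes -0.32, -0.22 and -0.46). The mitochondrial members had a median of 0.06 and 0 calls in edgeR and DESeq2, none of them under an unadjusted 0.05, and without RYGB Chow replicate 3 the median was -0.10.

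Ndufa4l2, a relative of Ndufa4 known as a target of hypoxia-inducible factor, was the nuclear member highest in RYGB HFD relative to RYGB Chow. It measured 0.760, 0.859, 1.21, 0.975 and 1.69 CPM in RYGB Chow and 1.25, 2.44, 1.90, 2.18 and 2.25 CPM in RYGB HFD, overlapping through RYGB Chow replicate 5 and RYGB HFD replicate 1. Its log2 fold change of 0.87 (SE 0.261) had an adjusted p of 0.0691 in edgeR and 0.0446 in DESeq2, and it passed in edgeR without RYGB Chow replicate 5 (adjusted p = 0.0366) or without RYGB HFD replicate 1 (adjusted p = 0.0495). It passed the filter on low values in only 5 mice, so its values rest on few counts. The RYGB HFD mice at 2.44, 2.18 and 2.25 CPM were among them, and no RYGB Chow mouse reached 2 CPM. Ndufa4l2 thus entered the test in part through the group in which it was high, which limits what its rise in this contrast shows.

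The surgery by diet interaction, the diet difference after bypass minus the diet difference after sham operation, asked whether the diet effect differed between operations. In edgeR 0 nuclear and 0 mitochondrial members passed (2.48% of all genes were higher), and DESeq2 called 1 nuclear member, Cox7a2. At an unadjusted p under 0.05, 4 nuclear members were higher and 0 lower, beside 10.5% of all genes that were higher. They were Cox7a2 (0.38, SE 0.123, adjusted p = 0.0764 in edgeR and 0.0433 in DESeq2), Cox7a2l (0.30), Ndufa4l2 (0.86) and Uqcrh (0.30), with adjusted p of 0.16 to 0.22 in edgeR for the last 3. Atp5h and Ndufc2 followed (0.28 and 0.35, adjusted p = 0.304 and 0.31 in edgeR). Thus 25 nuclear members passed for diet in sham-operated and 0 in bypassed mice, but no member's diet effect was shown by edgeR to differ between the operations.

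**Figure D5:**
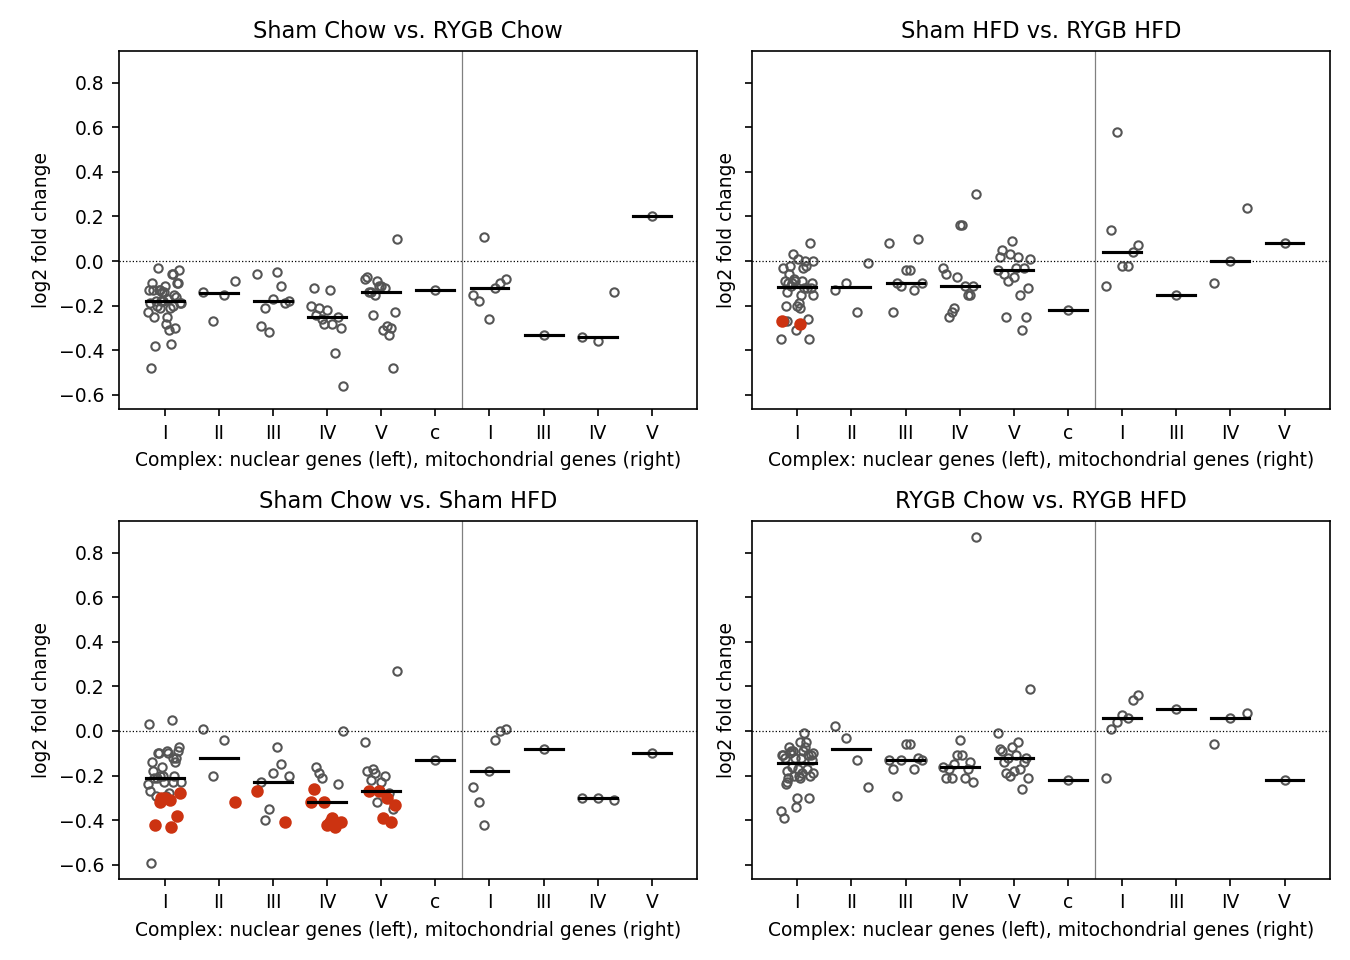
Log2 fold change of each of the 92 members in the 4 contrasts (second group over first), by complex and genome. Each circle is a gene, filled red at an adjusted p under 0.05, and each black line is the median of its set. The 25 red points of Sham Chow vs. Sham HFD and the 2 of Sham HFD vs. RYGB HFD lie below 0 among the nuclear genes, and no mitochondrial gene is red.

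Comparisons that share a group of mice also share its errors, so the counts above are given side by side and not as overlaps. The study defined RYGB-induced genes by an unadjusted p under 0.05 in the same direction in both Sham vs. RYGB contrasts. It used DESeq2, so its own sets can hold other members than those found here. Applied to the edgeR fit, that definition gave 2 lower members, Ndufb7 and Ndufs5, beside 1.73% of all genes. Ndufb7, an accessory complex I subunit, measured 61.7 ± 7.12 CPM (SD, n = 5) after sham operation and 51.8 ± 5.58 after bypass on chow, and 58.0 ± 5.22 and 50.0 ± 6.00 on HFD. The log2 fold changes were -0.25 on chow and -0.21 on HFD (adjusted p = 0.348 and 0.143 in edgeR). Ndufs5 measured 63.3 ± 8.58, 51.5 ± 10.7, 57.2 ± 8.24 and 47.9 ± 2.55 CPM in the same order, and its log2 fold changes were -0.30 and -0.26 (adjusted p = 0.388 and 0.162 in edgeR). The groups overlapped for both genes in both contrasts. By the matching definition of HFD-induced genes, also applied to the edgeR fit, 7 members were lower (Ndufa4, Ndufb4, Ndufb11, Ndufs7, Sdhd, Uqcrfs1 and Cox5a), beside 3.65% of all genes.

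Promoter windows from 250 bases before to 50 after the start of transcription (RefSeq, GRCm38.p6) were found for 66 of the 80 nuclear members. They were searched on both strands for 3 short sequences tied to nuclear genes of mitochondria, CCGGAAG for ETS factors such as GABP, GCGCATGCG for NRF1 and AAGATGGCG for YY1. The ETS letters occurred in 24.2% of members against 12.9% of 17492 protein-coding genes with a window, the NRF1 letters in 13.6% against 2.61%, and the YY1 letters in 10.6% against 2.14%. Among the 22 matched members lower in Sham HFD than in Sham Chow, the shares were 18.2%, 9.09% and 13.6%, and among the 44 others 27.3%, 15.9% and 9.09%. The windows of 3 called members that hold such letters are shown, with the matches in capitals: Atp5l has the ETS letters at 2 places and the NRF1 letters once, Uqcrh has the ETS letters once, both read from the other strand, and Ndufs7 has the YY1 letters once on the strand shown. Atp5l was picked after its values were seen. A match is a description of the letters only.

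Atp5l, chr9:44920693-44920992, minus strand: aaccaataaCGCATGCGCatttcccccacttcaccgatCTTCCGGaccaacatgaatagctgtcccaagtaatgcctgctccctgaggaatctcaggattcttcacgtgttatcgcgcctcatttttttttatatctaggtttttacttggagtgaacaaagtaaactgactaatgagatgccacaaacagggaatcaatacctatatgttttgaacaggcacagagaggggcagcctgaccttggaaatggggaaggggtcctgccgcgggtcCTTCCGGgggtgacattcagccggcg
Uqcrh, chr4:116075021-116075320, minus strand: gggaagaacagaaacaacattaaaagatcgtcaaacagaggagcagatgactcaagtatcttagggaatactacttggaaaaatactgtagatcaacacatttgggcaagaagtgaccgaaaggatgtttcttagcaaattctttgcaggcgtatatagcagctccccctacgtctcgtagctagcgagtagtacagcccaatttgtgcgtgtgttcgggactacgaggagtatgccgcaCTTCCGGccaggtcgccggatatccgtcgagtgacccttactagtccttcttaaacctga
Ndufs7, chr10:80249199-80249498, plus strand: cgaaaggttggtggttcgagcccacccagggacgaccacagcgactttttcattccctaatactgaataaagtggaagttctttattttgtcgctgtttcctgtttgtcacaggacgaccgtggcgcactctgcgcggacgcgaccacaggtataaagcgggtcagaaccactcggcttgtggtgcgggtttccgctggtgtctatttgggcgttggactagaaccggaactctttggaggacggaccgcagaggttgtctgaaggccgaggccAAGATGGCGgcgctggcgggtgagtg

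The genes that make and assemble the chain were taken from fixed lists, to be read against 10.7% of all genes lower and 10.9% higher in Sham Chow vs. Sham HFD. In this contrast 13 of 77 mitochondrial ribosome genes were lower and 0 higher (median log2 fold change -0.16), 5 of 21 genes for the upkeep and transcription of mitochondrial DNA were lower and 0 higher (-0.20), and 4 of 19 iron-sulfur cluster genes were lower and 0 higher (-0.16). Of the assembly factors, 3 of 19 for complex IV were lower, and 0 of 15 for complex I, 0 of 4 for complex II, 0 of 6 for complex III and 0 of 3 for the ATP synthase were called in edgeR, where 3, 0, 0 and 0 were lower at an unadjusted p under 0.05. In coenzyme Q synthesis 1 of 13 was lower. In the tricarboxylic acid cycle 2 of 18 were higher and 2 lower. Several of these shares are near those of all genes. Without Sham HFD replicate 4, 1 iron-sulfur and 1 complex IV assembly gene were lower, and 10 mitochondrial ribosome genes were. Without RYGB Chow replicate 3, 2 complex IV assembly genes and 1 complex I assembly gene were lower. Mrpl30 of the mitochondrial ribosome fell by 0.49 on the log2 scale, from 53.3 ± 6.25 to 38.0 ± 3.29 CPM (SD, n = 5, adjusted p = 0.000791 in edgeR).

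Of 10 regulators of mitochondrial biogenesis, 3 were lower and 1 was higher in Sham Chow vs. Sham HFD, 1 was higher in Sham HFD vs. RYGB HFD and 1 in RYGB Chow vs. RYGB HFD. The higher 1 in both diet contrasts was Esrrg, an orphan nuclear receptor named after its values were seen (0.87, adjusted p = 0.0455, and 1.17, adjusted p = 0.0442, in edgeR). Without Sham HFD replicate 4 the counts were 0 higher and 3 lower, 3 higher and 0 lower, and 0 of either, in that order, and without RYGB Chow replicate 3 they were 1 higher and 4 lower, 2 higher and 0 lower, and 0 of either. Nrf1, which encodes the factor of the NRF1 letters, was lower in Sham HFD (12.1 ± 1.19 CPM in Sham Chow, 9.25 ± 0.639 in Sham HFD, log2 fold change -0.39, adjusted p = 0.00886 in edgeR) and higher in RYGB HFD than in Sham HFD (11.6 ± 1.36 CPM, 0.33, adjusted p = 0.0299). Gabpa stood at -0.21 (adjusted p = 0.0517) and 0.16 (adjusted p = 0.179) in these contrasts in edgeR. Ppargc1a, Ppargc1b, Tfam and Esrra were not called in any of the 4 contrasts in edgeR, with log2 fold changes from -0.19 to 0.45. Yy1, Lrpprc, which stabilizes mitochondrial messages, and Polrmt, the mitochondrial RNA polymerase, were picked after their values were seen. Their values were -0.30, -0.33 and -0.29 in Sham Chow vs. Sham HFD (adjusted p = 0.00666, 0.00517 and 0.025 in edgeR), while Lrpprc (0.30) and Polrmt (0.28) were higher in RYGB HFD than in Sham HFD, with adjusted p of 0.0109 and 0.0326. The ribosomal RNA gene mt-Rnr1, transcribed from the same genome as the mitochondrial members, fell by 0.60 in Sham Chow vs. Sham HFD (575 ± 97.1 to 380 ± 48.8 CPM, adjusted p = 0.00583 in edgeR). The other of the 2 mitochondrial ribosomal RNA genes stood at -0.43 and was not called. The libraries were made after poly-T enrichment, and how much ribosomal RNA that step kept is not known, so these counts may not follow its level.

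In Sham HFD vs. RYGB HFD, where 7.90% of all genes were lower and 8.54% higher, the mitochondrial ribosome had 1 gene higher and 3 lower of 77, the mitochondrial DNA list 2 higher and 0 lower of 21, and the iron-sulfur list 0 higher and 4 lower of 19. Without Sham HFD replicate 4 the mitochondrial ribosome had 0 higher and 2 lower, the mitochondrial DNA list 1 higher and the iron-sulfur list 3 lower. Iscu, the scaffold on which iron-sulfur clusters are built, fell by 0.58 on the log2 scale (95.0 ± 6.65 CPM in Sham HFD, 63.4 ± 6.20 in RYGB HFD, adjusted p = 0.00051 in edgeR). Pdha1 of pyruvate dehydrogenase (-0.41, adjusted p = 0.000194) and Suclg2 of the tricarboxylic acid cycle (-0.46, adjusted p = 0.00118) were lower too in edgeR. Neat1, a nuclear RNA listed as a sign of RNA quality, was higher on HFD after both operations (1.31 in Sham Chow vs. Sham HFD, adjusted p = 0.000223 in edgeR, and 1.58 in RYGB Chow vs. RYGB HFD, adjusted p = 0.000186). Of the 3 tested RNAs of that list it alone was called in these contrasts. Their median was -0.02 in Sham Chow vs. Sham HFD, with 2 below 0. It was 0.56 in RYGB Chow vs. RYGB HFD, with 0 below 0 and 2 higher at an unadjusted p under 0.05. In Sham HFD vs. RYGB HFD their median was 0.46, with 0 below 0, 0 called and 1 higher at an unadjusted p under 0.05. The part of RNA quality in the members' values was not tested. In RYGB Chow vs. RYGB HFD, Pdhx (-0.36, adjusted p = 0.0134 in edgeR) and Idh2 (-0.42, adjusted p = 0.0342) were lower. Ucp2, which encodes a carrier of the inner membrane, was the carrier gene with the smallest p, at 24.7 ± 2.95 CPM in Sham Chow and 57.9 ± 11.2 in Sham HFD, against 32.6 ± 9.05 and 33.4 ± 6.29 in the RYGB mice on chow and HFD (log2 fold change 1.23 in Sham Chow vs. Sham HFD, adjusted p = 4.75e-05 in edgeR, and -1.20 in the interaction, adjusted p = 0.00677). Slc25a4, the muscle form of the adenine nucleotide carrier, passed as higher in Sham HFD (1.66, adjusted p = 0.0162 in edgeR), but stood at 39.2 CPM in Sham HFD replicate 4, the library with muscle RNA, and at no more than 5.73 CPM in the other 19 mice. Without that library its log2 fold change was 0.49 (adjusted p = 0.0964 in edgeR).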

How the data were processed

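Liver RNA of 20 mice was sequenced after poly-T enrichment, as strand-marked libraries with paired reads of 150 bases. The counts per gene are whole numbers as deposited by the authors, whose processing notes name Trimmomatic 0.36, HISAT2 2.1.0, featureCounts 1.5.0-p3 and the build mm10. The strand setting and the treatment of reads with several positions are not given in the sources used here. Gene symbols came from GENCODE M21 for 54495 of 54532 genes.

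Genes that 3 or more mice held at 2 CPM or above entered edgeR 4.0.16 (R 4.3.3), as a quasi-likelihood test with TMM scaling and 1 model of the 4 groups, with Benjamini-Hochberg adjustment over all 12289 genes and a threshold of 0.05. Log2 fold changes give the second group of a contrast over the first. DESeq2 1.42.0 was an alternative, beside other scalings, filters, an exon length offset, a replicate block and leaving out each mouse. The steps were tested on simulated data. Mice are separate animals, and their number limits the precision.

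The members and gene lists were chosen with earlier results of these data known. Named by rule were the mitochondrial members, the 6 nuclear members with the smallest p per contrast, the isoform families, Ndufb7 and Ndufs5, the highest and lowest member per complex, and, from the other lists, the 3 genes with the smallest p per contrast and 6 regulators. Genes outside it, among them Atp5l, Cox5a, Yy1, Lrpprc, Polrmt, mt-Rnr1 and Slc25a4, were named after their values were seen. Nuclear copies were found by exact matches of 150-base windows of mitochondrial genes to the transcripts of annotated pseudogenes (GENCODE M21), on both strands, and aligned with Biopython 1.88.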

Additional observations from a re-analysis of the deposited data

Results flagged for a closer look

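Single mice stood apart from the other 4 of their group in 8 of 152 groups of 5 checked by the ratio of the gap to the range (limit 0.71), and chance alone gives about 1 in 20. Among mitochondrial members these were mt-Nd2 in Sham Chow replicate 5 (9175 CPM) and in Sham HFD replicate 1 (7298 CPM), mt-Nd3 in Sham Chow replicate 2 (33.5 CPM) and mt-Nd4l in RYGB HFD replicate 5 (37.5 CPM). Among nuclear members they were Ndufb3 in Sham HFD replicate 5 (37.0 CPM), Ndufs7 in Sham HFD replicate 1 (59.6 CPM) and Cycs in RYGB Chow replicate 5 (104 CPM). The summed level of the nuclear members was low in Sham HFD replicate 1 (9948 CPM).

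Outside the members, striated muscle markers summed to 315 CPM in Sham HFD replicate 4, where no other mouse exceeded 0.331 CPM.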

How the results depend on the processing

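The member medians moved by less than the spread between mice, but those near 0 turned: the nuclear interaction median from 0.08 to -0.05 with library size only, the mitochondrial median of Sham HFD vs. RYGB HFD from 0.02 to -0.07 with library size only and to -0.03, -0.02 and -0.01 without Sham HFD replicate 1, RYGB HFD replicate 3 and RYGB HFD replicate 4, and that of RYGB Chow vs. RYGB HFD from 0.06 to -0.10 without RYGB Chow replicate 3 and -0.11 without both doubted libraries. The other 7 member medians kept their direction. For the nuclear members in Sham HFD vs. RYGB HFD, the count of 2 became 13 with library size only, 0 with no filter and 5 with only the 2 groups fitted, and ran from 0 to 4 when each mouse was left out in turn. Cox7a2l was called in the other direction, higher in RYGB HFD, with the exon length offset (0.22, adjusted p = 0.0252 in edgeR). It was also called higher with that offset and the replicate block (adjusted p = 0.0444 in edgeR). In Sham Chow vs. Sham HFD the 25 calls became 6 with library size only (5 lower, 1 higher) and ran from 10 to 35. In RYGB Chow vs. RYGB HFD the count of 0 became 1 with the exon length offset, 1 with that offset and the replicate block, 1 with both doubted libraries left out (chosen after seeing the data) and 1 by DESeq2, and ran from 0 to 3. In the interaction it became 1 by DESeq2 and ran from 0 to 1. For the mitochondrial members, the 0 of Sham HFD vs. RYGB HFD ran from 0 to 1, and the 0 of Sham Chow vs. Sham HFD became 2 with only the 2 groups fitted and 1 with both doubted libraries left out, and ran from 0 to 2. Beyond fewer mice or genes, the cause was not tested. The deviations of same-numbered mice had correlations from -0.259 to 0.158. In Sham HFD vs. RYGB HFD, 3 of 5 mice correlated best with the mouse of their own number, against 0, 0 and 1 in the other contrasts. Whether the numbers pair mice cannot be told from these values. With the replicate block the nuclear calls were 26 in Sham Chow vs. Sham HFD and 2 in Sham HFD vs. RYGB HFD. The nearly complete nuclear copies limit 5 mitochondrial genes. Without those 5 the mitochondrial median was -0.18 for bypass on chow, -0.02 for bypass on HFD, -0.18 for diet after sham operation and 0.07 for diet after bypass.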
